A study of Mus musculus with 2 samples.

Results

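Genes of immune checkpoint ligands, costimulators and their receptors were followed by name in GR1+ cells from mouse mammary tumors. They were 10 of the 32285 genes listed in the count matrices, Cd274, Pdcd1lg2, Cd80, Cd86, Pdcd1, Ctla4, Havcr2, Vsir, Lgals9 and Sirpa, and each was found under 1 feature. The tumors grew from 4T1, a mammary carcinoma line of BALB/c mice, in its parental form 4T1P, whose tumors do not respond to anti-PD1, or in 4T1M, a mutagenized derivative whose tumors do. GR1, an antigen that Ly6G and Ly6C share, was used to pull cells from tumor suspensions with magnetic beads, and the cells of each tumor type were profiled as 1 droplet library (10x Genomics). By the records each library pools 5 mice of 6 to 8 weeks of age, so that both libraries share strain, age and isolation, and differ in the tumor line. No anti-PD1 treatment is named for these samples, the hosts kept their own immune cells, and 4T1M is a single derived line, so that what belongs to the line and what belongs to response cannot be told apart. With 1 pooled library per tumor type no spread between animals can be had and no test between tumor types was run, and all intervals below are 95% intervals that cover counting error only.

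PD-L1 (Cd274) and PD-L2 (Pdcd1lg2) are ligands of the inhibitory receptor PD-1 (Pdcd1) on T cells, and interferon is known as a strong inducer of PD-L1 in myeloid cells. CD80 and CD86 give T cells their costimulatory signal through CD28 and are also bound by the inhibitory receptor CTLA-4. TIM-3 (Havcr2), VISTA (Vsir), galectin-9 (Lgals9), which binds TIM-3, and SIRPα (Sirpa), the receptor of the CD47 signal against phagocytosis, add further inhibitory routes, several of them carried by myeloid cells themselves.

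Cd274 and Pdcd1lg2 lie next to each other on the plus strand of chromosome 19 (GRCm38), at chr19:29367455-29388095 and chr19:29410919-29471161, and Lgals9 lies on the minus strand of chromosome 11 at chr11:78962974-78984946. RefSeq (GRCm38.p6) gave the 250 bases upstream of the start of 8 of the 10 genes, all but Cd86 and Sirpa. The 3 shown here are those of the neighboring PD-1 ligands and of Lgals9, whose levels along an interferon score are compared below, at chr19:29367188-29367437 (plus), chr19:29410669-29410918 (plus) and chr11:78984925-78985174 (minus). Capitals mark the interferon response letters described in the next paragraph.
Cd274: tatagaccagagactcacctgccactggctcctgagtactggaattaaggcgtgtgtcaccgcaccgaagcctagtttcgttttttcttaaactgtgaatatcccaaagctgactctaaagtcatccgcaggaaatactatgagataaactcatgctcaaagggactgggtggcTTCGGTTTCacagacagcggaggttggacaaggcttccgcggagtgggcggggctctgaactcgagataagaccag
Pdcd1lg2: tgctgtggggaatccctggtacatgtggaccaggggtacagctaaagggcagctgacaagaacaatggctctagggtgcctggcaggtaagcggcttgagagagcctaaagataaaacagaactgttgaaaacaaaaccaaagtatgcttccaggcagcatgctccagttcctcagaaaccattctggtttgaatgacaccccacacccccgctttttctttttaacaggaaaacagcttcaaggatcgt
Lgals9: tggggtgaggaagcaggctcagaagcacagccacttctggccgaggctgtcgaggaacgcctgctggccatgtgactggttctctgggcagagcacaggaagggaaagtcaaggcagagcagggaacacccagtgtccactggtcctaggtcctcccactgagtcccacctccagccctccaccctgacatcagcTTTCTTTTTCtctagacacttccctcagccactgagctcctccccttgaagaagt

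Each window was searched on both strands. The letters GAAANNGAAA (or TTTCNNTTTC), an interferon response element, stood in 2.98% of 32851 promoter windows of the same length and, among the 8 genes, in that of Lgals9 alone, from -55 to -46 counted back from the start. A shorter form of 9 letters, GAAANNGAA (or TTCNNTTTC), which was added after the Cd274 sequence had been read and which overlaps the longer one, stood in 7.13% of windows and in those of Cd274 (-76 to -68), Lgals9 and Ctla4 (-166 to -158). The letters of a gamma-activated site (TTCNNNGAA, in 7.02% of windows), of an NF-kB site (GGGNNTTTCC or GGAAANNCCC, 1.41%) and of a TATA box (TATAAA or TTTATA, 12.4%) were in none of the 8 windows. The Pdcd1lg2 window held none of the letters searched. These matches describe the sequence and no binding was measured.

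Barcodes were retained where they held between 500 and 5000 genes and no more than 10% of UMIs from mitochondrial genes, which left 5187 cells, 1726 of 4T1P and 3461 of 4T1M. UMIs, the molecule tags that mark single transcripts, were summed over 3 classes of cells set by marker genes, and levels are given as CPM, counts per 1000000 UMIs of the class. Neutrophils (at least 1.5% of UMIs from S100a8 and S100a9) numbered 612 in 4T1P and 1684 in 4T1M, macrophages (at least 0.3% from C1q, Apoe, Csf1r, Cd68 and Fn1) 797 and 974, and T/NK cells (at least 2 of 6 lymphocyte genes) 74 and 98. The marker sets include the genes of the rules, so their levels in the classes were partly set in advance. All 9 neutrophil and all 9 macrophage markers were detected in both myeloid classes, and only their levels differed. The neutrophil markers summed to 174819 and 141949 CPM in neutrophils and to 718 and 1300 CPM in macrophages. The macrophage markers summed to 20248.5 and 19816.8 CPM in macrophages and to 668 and 766 CPM in neutrophils. Of the 14 T/NK markers, which include the 6 genes of the rule, 13 were detected in the T/NK cells, with Klrb1c at 0. Of the dendritic markers only Ccr7 reached 10 CPM there. The median depth was 3054.5 and 2956 UMIs in neutrophils, 9703 and 9213.5 in macrophages, and 5640 and 5596.5 in T/NK cells. In the 4T1M T/NK cells the 9 neutrophil markers summed to 14929 CPM, against 171 CPM in 4T1P. Of these cells 2 also met the neutrophil rule, and without the 4 that met either myeloid rule S100a8 and S100a9 took 0.0492% of their UMIs in place of 1.46%. The libraries shared 5 barcodes, 3 of them among retained cells.

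Cd274, the gene of PD-L1, had its highest level in neutrophils of both tumors. It was counted with 1552 UMIs in 4T1P neutrophils, 620.1 CPM (589.6 to 652), and with 5386 UMIs in 4T1M neutrophils, 822 CPM (800.4 to 844). Macrophages had 171 CPM (163 to 180.3) in 4T1P and 239.5 CPM (229.7 to 249.7) in 4T1M. T/NK cells had 88.7 CPM (64.2 to 119) from 43 UMIs and 81.4 CPM (59.8 to 108) from 47 UMIs, of which neutrophil RNA carried at the S100a8 and S100a9 ratio would account for 0.635% and 114%. Without the T/NK cells that also met a myeloid rule they had 88.6 and 77.2 CPM, with a computed carried level of 0.56 and 3.14 CPM. The order neutrophils, macrophages, T/NK cells thus held in both libraries with no neighboring intervals overlapping. The neutrophil level was 3.62-fold the macrophage level in 4T1P and 3.43-fold in 4T1M, log2 ratios of macrophages over neutrophils of -1.85 (-1.96 to -1.75) and -1.78 (-1.85 to -1.71). S100a8 and S100a9 alone took 15.9% and 12.9% of neutrophil UMIs, and the median of 11931 genes lay at 1.05 and 1.04 on this scale. Relative to that median gene Cd274 was 7.47-fold and 7.08-fold higher in neutrophils.

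**Figure D1:**
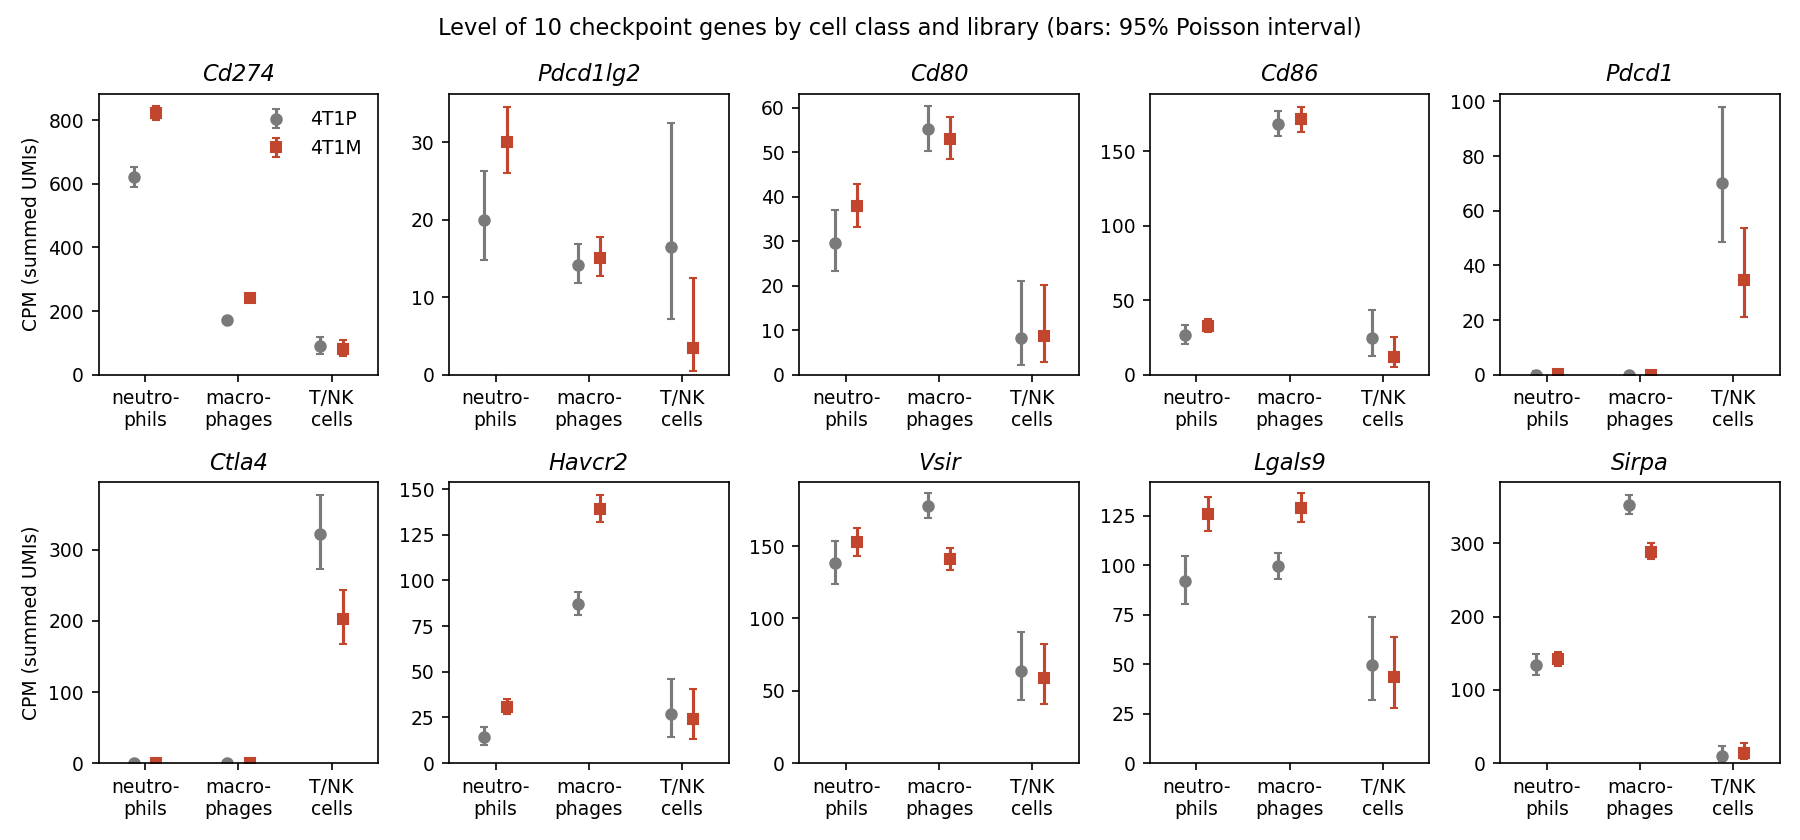
Level of each of the 10 genes in CPM of summed UMIs (linear axes from 0, scaled for each gene) in neutrophils, macrophages and T/NK cells of 4T1P and 4T1M, with exact Poisson 95% intervals for 1 pooled library per tumor type. Cd274 is highest in neutrophils, Cd86, Havcr2 and Sirpa are highest in macrophages, and Pdcd1 and Ctla4 are close to 0 outside T/NK cells.

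Between the tumors, Cd274 was higher in 4T1M by a log2 ratio of 0.41 (0.33 to 0.49, 1.33-fold) in neutrophils and 0.48 (0.39 to 0.58, 1.40-fold) in macrophages, and the T/NK interval held 0 (-0.12, -0.75 to 0.51). Shares of cells followed the levels. After each cell had been thinned at random to 1000 UMIs, 40.0% of 612 4T1P neutrophils had a Cd274 UMI (36.1% to 44.0%), and 49.4% of 1680 4T1M neutrophils did (47.0% to 51.8%). Macrophages had 12.5% (10.2% to 15.0%) and 16.3% (14.0% to 18.9%), and T/NK cells 9.46% (3.89% to 18.5%) and 11.3% (5.80% to 19.4%). No class here is known to lack Cd274. At this depth the interval of the T/NK share overlapped that of macrophages and lay below that of neutrophils. Without thinning, the shares were 60.8% and 74.3% in neutrophils, 49.7% and 58.4% in macrophages, and 35.1% and 31.6% in T/NK cells. Thinning left out 4 4T1M neutrophils, 26 and 37 macrophages and 1 4T1M T/NK cell that were shallower. When each neutrophil was weighted alike, by the mean of single-cell CPM in place of summed UMIs, the log2 ratio was 0.24.

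Cd274 was spread over many neutrophils, and some of them held many of its UMIs. The counts here are not thinned, so deeper cells tend to hold more, and the part of depth was not tested. At least 4 UMIs were found in 165 of 612 4T1P neutrophils and 554 of 1684 4T1M neutrophils, and the fullest neutrophils held 24 and 36 UMIs. The 10% of cells with the most held 43.1% of all Cd274 UMIs of 4T1P neutrophils and 37.9% of those of 4T1M. In macrophages 161 of 797 and 221 of 974 cells had at least 4 UMIs, although macrophages were sequenced about 3 times as deeply, and the top 10% of cells held 47.5% and 43.2%.

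**Figure D2:**
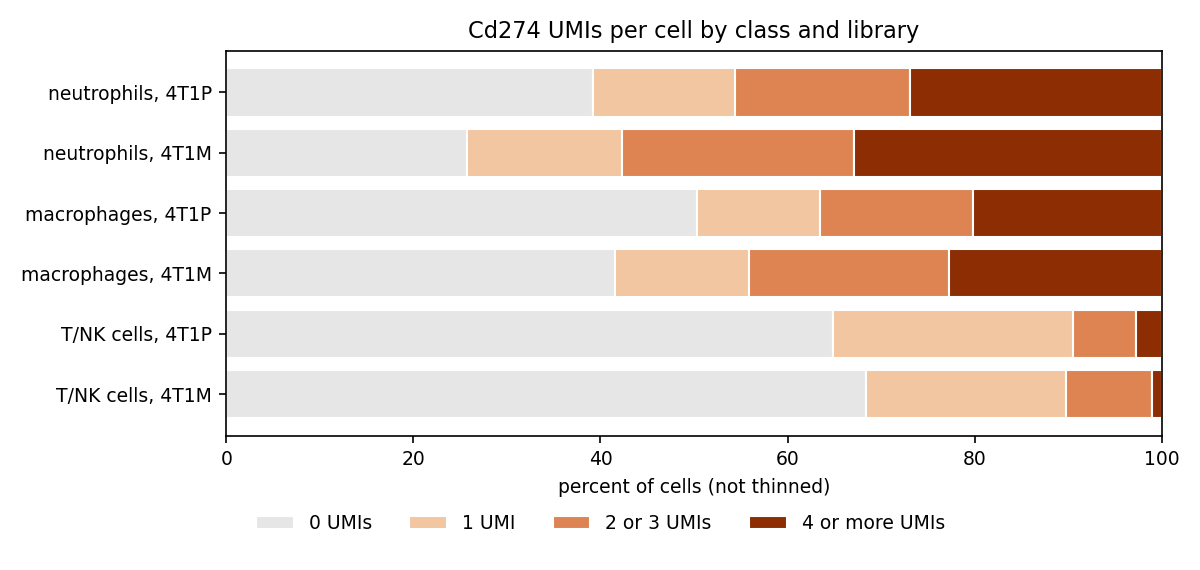
Percent of cells (horizontal axis, not thinned) with 0, 1, 2 or 3, and at least 4 UMIs of Cd274 in each class and library. Cells without a UMI make up 240 of 612 neutrophils of 4T1P and 433 of 1684 of 4T1M, and most T/NK cells with the gene have 1 UMI.

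Pdcd1lg2, which encodes the other PD-1 ligand, was sparse. Neutrophils had 19.98 CPM (14.8 to 26.3) in 4T1P from 50 UMIs and 30.1 CPM (26.0 to 34.6) in 4T1M from 197 UMIs. Macrophages had 14.2 CPM (11.8 to 16.9) and 15.1 CPM (12.7 to 17.8). T/NK cells, taken as background for this gene, had 8 UMIs (16.5 CPM, 7.12 to 32.5) in 4T1P. In 4T1M they had 2 UMIs (3.46 CPM, 0.42 to 12.5). The log2 ratio of T/NK cells over neutrophils was -0.28 (-1.56 to 0.81) in 4T1P, and over macrophages 0.22 (-1.02 to 1.24). Neither myeloid level was thus separable from background in 4T1P, while both lay above it in 4T1M. By CPM, neutrophils and macrophages were not separated in 4T1P, where the log2 ratio of macrophages over neutrophils was -0.50 (-0.98 to 0.01), and neutrophils were higher in 4T1M (-0.99, -1.31 to -0.67). Relative to the median gene Pdcd1lg2 was 2.91-fold and 4.10-fold higher in neutrophils of 4T1P and 4T1M. The log2 ratio of 4T1M over 4T1P was 0.59 (0.14 to 1.07) in neutrophils and 0.09 (-0.26 to 0.45) in macrophages. Among neutrophils thinned to 1000 UMIs, Cd274 was found in 57.1% of the 14 cells with Pdcd1lg2 and 39.6% of those without it in 4T1P. In 4T1M these shares were 71.7% of 53 cells and 48.2%. The product of the separate shares gave 5.6 and 25.9 cells with both ligands, and 8 and 38 were counted, a description from sparse counts.

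Of the costimulator genes, Cd86 was higher in macrophages than in neutrophils, and for Cd80 the order of these classes depended on the scaling. Cd86 had 168 CPM (159.9 to 177) in 4T1P macrophages and 171 CPM (163 to 179.8) in 4T1M macrophages, against 26.4 CPM (20.4 to 33.5) and 32.5 CPM (28.3 to 37.2) in neutrophils. The macrophage level was 6.38-fold and 5.27-fold the neutrophil level. Relative to the median gene Cd86 was 3.09-fold and 2.55-fold higher in macrophages of 4T1P and 4T1M. T/NK cells, which should lack Cd86, had 12 UMIs (24.7 CPM) and 7 UMIs (12.1 CPM), and thinned shares of 1.35% and 0 of 97 cells against 12.7% and 13.9% in macrophages and 3.27% and 2.44% in neutrophils. In 4T1P neutrophil Cd86 was thus not separable from T/NK cells by CPM (log2 ratio of T/NK cells over neutrophils -0.09, -1.11 to 0.81). In 4T1M it was higher than in T/NK cells (-1.42, -2.75 to -0.355). Part of the neutrophil value can be set beside carried-over macrophage RNA. C1q genes stood in neutrophils at 2.40% and 2.17% of their macrophage level, and at that ratio macrophage RNA would account for 15.3% and 11.5% of neutrophil Cd86, against 0.664% and 0.633% of neutrophil Cd274. The neutrophil rule itself caps the C1q genes, so this ratio covers only the macrophage RNA that passed the rule. Cd80 had 55.2 CPM (50.4 to 60.3) and 53.1 CPM (48.5 to 58.0) in macrophages and 29.6 CPM (23.2 to 37.1) and 37.9 CPM (33.3 to 42.9) in neutrophils, with 4 and 5 UMIs in T/NK cells. Its macrophage excess, 0.90 (0.54 to 1.27) in 4T1P and 0.49 (0.26 to 0.71) in 4T1M as a log2 ratio, was lower than that of the median gene, and it turned negative under TMM and DESeq2 scaling.

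Neither costimulator differed between the tumors beyond counting error. The log2 ratio of 4T1M over 4T1P in macrophages was 0.02 (-0.08 to 0.13) for Cd86 and -0.06 (-0.24 to 0.13) for Cd80, so that a difference of 1.5-fold lay outside both intervals. In neutrophils the values were 0.30 (-0.10 to 0.72) for Cd86 and 0.36 (-0.02 to 0.75) for Cd80, with 1.5-fold inside both, and the mean over single neutrophils gave -0.10 for Cd86. Cells with both Cd80 and Cd86 were few. In thinned macrophages 6 and 5 cells held both, where the product of the shares gave 5.08 and 4.90.

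The receptors of T cells, Pdcd1 and Ctla4, were counted almost entirely in T/NK cells. Ctla4, which encodes the inhibitory receptor of CD80 and CD86, had 156 UMIs in 32 of 74 4T1P cells, 322 CPM (273 to 376), and 117 UMIs in 27 of 98 4T1M cells, 203 CPM (168 to 243). It had 0 UMIs in 797 and 974 macrophages and in 612 4T1P neutrophils, and 3 UMIs in 1 of 1684 4T1M neutrophils. The log2 ratio of T/NK cells over neutrophils in 4T1P had a lower interval limit of 7.75. Pdcd1, the gene of PD-1, had 34 UMIs in 13 4T1P cells, 70.1 CPM (48.6 to 98.0), and 20 UMIs in 6 4T1M cells, 34.6 CPM (21.2 to 53.5). It had 0 UMIs in macrophages of both libraries and 0 and 1 in neutrophils, with a lower limit of the same ratio in 4T1P of 5.49. A count of 0 in 612 neutrophils allows a share of cells with a UMI of up to 0.490% when taken as 3 counts of the total, with a Clopper-Pearson limit of 0.601%. In thinned T/NK cells the shares with Ctla4 were 21.6% (12.9% to 32.7%) and 15.5% (8.92% to 24.2%), and with Pdcd1 5.41% (1.49% to 13.3%) and 1.03% (0.0261% to 5.61%). The Ctla4 shares lie above those of neutrophils, and for both genes the intervals of the 2 tumors overlap.

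Both receptors were lower in 4T1M T/NK cells, with log2 ratios of -1.02 (-1.89 to -0.18) for Pdcd1 and -0.67 (-1.02 to -0.31) for Ctla4. Under a mitochondrial limit of 5% the Ctla4 ratio was -0.07 (-0.52 to 0.38), and by the mean over single cells -0.17, so that the Ctla4 difference depends on these choices. Without an upper limit on detected genes the Pdcd1 ratio was -1.94. The make-up of the T/NK cells differed between the libraries. Cells with a Cd4 UMI numbered 28 in 4T1P and 12 in 4T1M, cells with Cd8a or Cd8b1 22 and 63, and cells with none of these 24 and 23. Within the Cd8 cells, Ctla4 stood at 231 CPM (168 to 310.5) and 113 CPM (81.9 to 151), and Pdcd1 at 121 CPM (76.6 to 181) and 48.7 CPM (29.3 to 76.0). The Pdcd1 UMIs of those cells came from 6 and 5 cells (27.3%, 10.7% to 50.2%, and 7.94%, 2.63% to 17.6%). Their Ctla4 UMIs came from 9 and 16 cells (40.9%, 20.7% to 63.6%, and 25.4%, 15.3% to 37.9%). For both genes the intervals of these shares overlapped between the tumors. The shares are not thinned, and the median depth of the Cd8 cells was 7360.5 UMIs in 4T1P and 6085 in 4T1M. Cells with Cd4 had 493 CPM (393 to 611) and 290.1 CPM (162 to 478) of Ctla4 and 2 and 0 UMIs of Pdcd1. Cells with none of these genes had 229.7 CPM (154 to 329.9) and 429 CPM (325 to 554) of Ctla4, the opposite order. These UMIs came from 8 of 24 and 7 of 23 cells (33.3% and 30.4%), so this order rests on few cells and was not seen in the share of cells. Foxp3, the regulatory T cell gene, was counted with 22 UMIs in 4T1P and 5 in 4T1M, and its part in the Ctla4 values was not tested. These cells came through a GR1 isolation meant for myeloid cells, so that they need not stand for the T cells of the tumors.

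**Figure D3:**
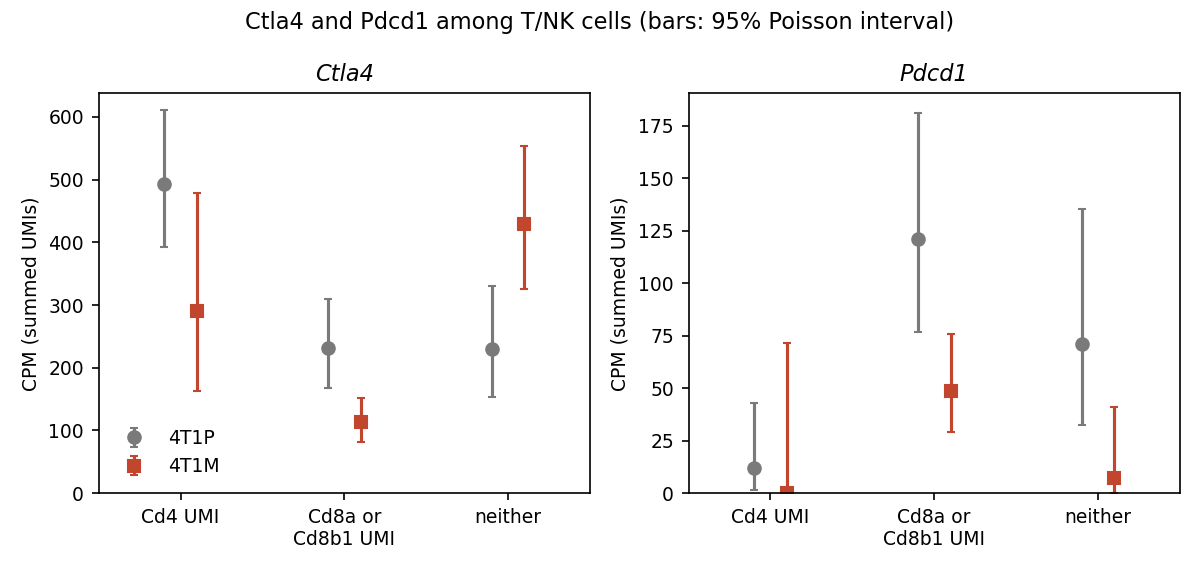
Level of Ctla4 and Pdcd1 in CPM of summed UMIs (linear axes from 0) in T/NK cells with a Cd4 UMI, with a Cd8a or Cd8b1 UMI, and with neither, in 4T1P and 4T1M, with exact Poisson 95% intervals. In the Cd8 cells both genes are higher in 4T1P by CPM, while the intervals of the shares of cells with a UMI overlap. The cells with neither have Ctla4 at 229.7 CPM in 4T1P and 429 CPM in 4T1M, from 8 and 7 cells with a UMI.

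Havcr2, which encodes TIM-3, was highest in macrophages among the 3 classes. It had the highest ratio of 4T1M over 4T1P of the group in both myeloid classes. Macrophages had 87.0 CPM (81.0 to 93.4) in 4T1P and 139 CPM (132 to 147) in 4T1M, a log2 ratio of 0.68 (0.55 to 0.81) and 1.60-fold. Neutrophils had 14.4 CPM (10.1 to 19.9) from 36 UMIs and 30.8 CPM (26.7 to 35.4) from 202 UMIs, a log2 ratio of 1.10 (0.58 to 1.65) and 2.14-fold. The macrophage level was 6.05-fold and 4.52-fold the neutrophil level by CPM, and 2.93-fold and 2.19-fold relative to the median gene. T/NK cells had 26.8 and 24.3 CPM, from 13 and 14 UMIs, with intervals that overlapped those of neutrophils in both libraries. By the C1q ratio, which the neutrophil rule itself caps, macrophage RNA would account for 14.5% and 9.82% of the neutrophil level. In neutrophils without any UMI of C1qa, C1qb, C1qc or Csf1r the ratio between the tumors was 0.68, with an interval that held 0 (-0.07 to 1.52). Thinned shares were 6.74% (5.08% to 8.75%) and 10.0% (8.18% to 12.1%) in macrophages and 1.31% (0.566% to 2.56%) and 2.5% (1.81% to 3.36%) in neutrophils.

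By CPM, Lgals9, the gene of the TIM-3 ligand galectin-9, was even between the myeloid classes. It had 91.9 CPM (80.4 to 105) in 4T1P and 126 CPM (117 to 135) in 4T1M neutrophils, and 99.4 CPM (92.9 to 106) and 129 CPM (122 to 137) in macrophages, with 49.5 and 43.3 CPM in T/NK cells. By CPM the 2 myeloid classes did not differ beyond counting error in either library, and T/NK cells were lowest in both. Relative to the median gene Lgals9 was 1.91-fold and 2.01-fold higher in neutrophils than in macrophages of 4T1P and 4T1M. Lgals9 was higher in 4T1M by log2 ratios of 0.45 (0.24 to 0.67) in neutrophils and 0.38 (0.25 to 0.51) in macrophages, close to the ratios of Cd274.

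Vsir and Sirpa, the genes of VISTA and SIRPα, went the other way in macrophages. Vsir had 178 CPM (169 to 187) in 4T1P and 141 CPM (134 to 149) in 4T1M macrophages, a log2 ratio of -0.33 (-0.44 to -0.23). Sirpa had 353 CPM (340.4 to 365) and 289 CPM (278 to 299.8) there, a log2 ratio of -0.29 (-0.36 to -0.21). Neutrophils had 138 CPM (124 to 154) and 153 CPM (143 to 163) of Vsir and 134 CPM (120.3 to 149) and 142 CPM (133 to 151) of Sirpa, with ratios of 0.14 (-0.03 to 0.33) and 0.08 (-0.10 to 0.26) that held 0. By CPM Vsir was thus higher in macrophages than in neutrophils in 4T1P (log2 ratio 0.36, which TMM and DESeq2 scaling turn to -0.62 and -0.77) and not separable from neutrophils in 4T1M (-0.12, -0.23 to 0.01). Relative to the median gene Vsir was 1.60-fold and 2.23-fold higher in neutrophils than in macrophages of 4T1P and 4T1M. T/NK cells had 63.9 and 58.9 CPM of Vsir, the lowest of the classes. Sirpa was highest in macrophages of both tumors by CPM, at 2.63-fold and 2.04-fold the neutrophil level, an excess that in 4T1M was that of the median gene (-0.02 relative to it, and -0.030 under DESeq2 scaling). T/NK cells, which should lack it, had 5 and 8 UMIs of Sirpa, of which carried macrophage RNA would account for 79.8% and 111%. Thinned shares of Sirpa were 26.2% and 22.4% in macrophages and 13.6% and 12.9% in neutrophils, against 0 of 74 T/NK cells in 4T1P, which allows up to 4.05% by 3 counts of the total and 4.86% by the Clopper-Pearson limit, and 1 of 97 in 4T1M.

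**Figure D4:**
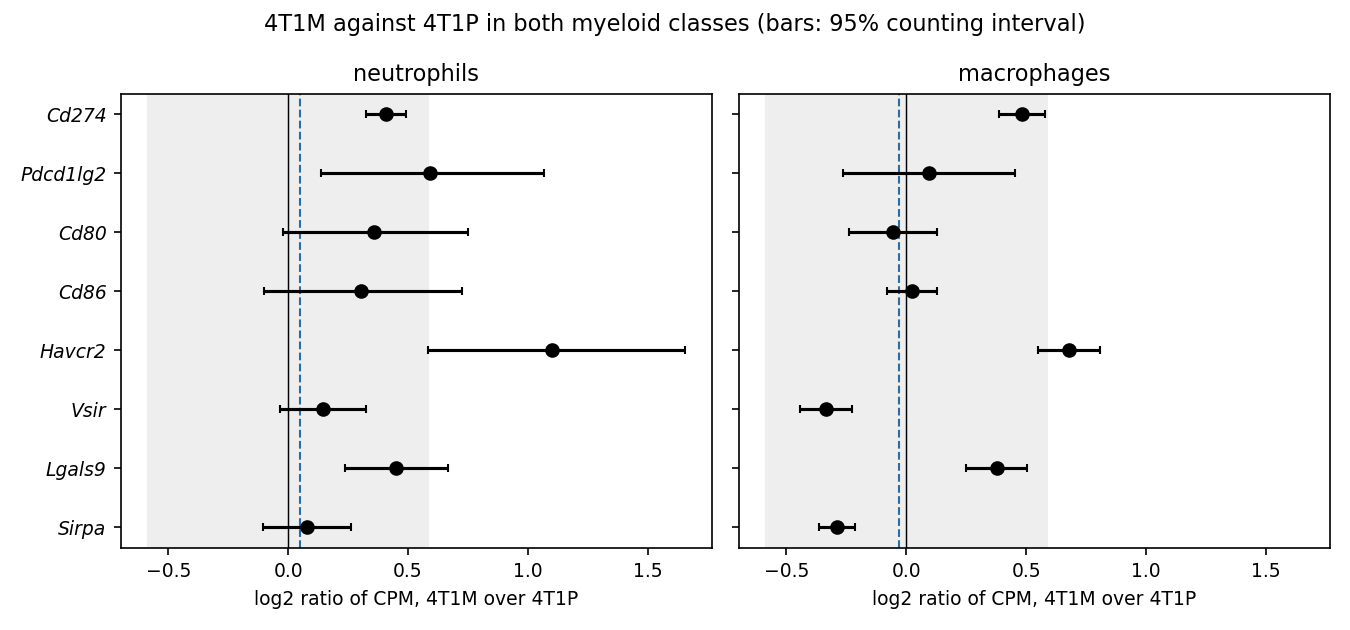
Log2 ratio of CPM of 4T1M over 4T1P for each gene but Pdcd1 and Ctla4 in neutrophils and macrophages (points) with exact conditional 95% intervals for counting error (bars). T/NK cells are not shown. Cd274, Lgals9 and Havcr2 lie above 0 with their intervals in neutrophils and macrophages, and Vsir and Sirpa lie below 0 in macrophages.

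Few members differed by 1.5-fold between the tumors. With 8 genes counted, the group cannot be called rich or poor in such differences against all genes. A gene was counted where it differed by at least 1.5-fold and had at least 20 UMIs in both libraries together, which 8 of the 10 members had in each myeloid class, all but Pdcd1 and Ctla4. In neutrophils 2 of 8 were higher in 4T1M, Havcr2 and Pdcd1lg2, beside 13.8% of 8440 genes, and 0 of 8 were lower, beside 6.13%. Pdcd1lg2 lay at 1.51-fold, just past the limit. In macrophages 1 of 8 was higher, Havcr2, beside 5.92% of 11308 genes, and 0 of 8 were lower, beside 6.27%. The median log2 ratio of the 8 was 0.38 in neutrophils and 0.06 in macrophages, against 0.05 and -0.03 over all genes. In neutrophils 8 of 8 ratios lay above 0, as did 55.5% of all genes, and in macrophages 5 of 8 and 44.6%. Between the classes, 3 of 8 were at least 1.5-fold higher in macrophages in both libraries, Cd86, Havcr2 and Sirpa, beside 57.1% of 11931 genes, and 1, Cd274, was higher in neutrophils, beside 14.1%. Relative to the median gene these became 2 (Cd86 and Havcr2), beside 33.6%, and 4 (Cd274, Pdcd1lg2, Vsir and Lgals9), beside 30.8%.

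Within the neutrophils, Cd274 and Lgals9 were higher in cells with more transcripts of interferon-stimulated genes. Each cell was scored by its UMIs from 22 such genes, among them Isg15, Ifit1, Rsad2 and Irf7 and none of the 10 members, out of 1000 thinned UMIs, and placed in a low (at most 1), middle (2 to 4) or high (over 4) range. These are ranges and not cell types, and 1713 of 2292 neutrophils lay within 1 UMI of a limit. Cd274 stood at 384, 771 and 1214 CPM in the low, middle and high range of 4T1P and at 620.3, 756 and 1142 CPM in 4T1M. High over low gave log2 ratios of 1.66 (1.49 to 1.83) and 0.88 (0.79 to 0.97). Lgals9 had 73.4, 85.8 and 158 CPM in 4T1P and 86.5, 120.5 and 181 CPM in 4T1M, with ratios of 1.11 (0.67 to 1.55) and 1.07 (0.82 to 1.31). The other members did not follow the score in both libraries. High over low was -0.13 (-0.56 to 0.28) and -0.17 (-0.39 to 0.04) for Vsir, -0.15 and -0.10 for Sirpa, 0.20 and -0.25 for Pdcd1lg2 and 0.37 and 0.10 for Cd80, with every interval holding 0. Havcr2 gave 0.11 (-1.51 to 1.5) and 0.48 (0.0028 to 0.97), and Cd86 0.86 and 0.24 with 0 in both intervals.

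The tumors differed in how many neutrophils each range held, and the part of this in their Cd274 levels was not tested. The high range held 21.7% of 4T1P and 34.0% of 4T1M neutrophils, and the low range 54.2% and 38.3%. Within the low range Cd274 was higher in 4T1M by a log2 ratio of 0.69 (0.55 to 0.83), while the middle (-0.03, -0.19 to 0.14) and high ranges (-0.09, -0.22 to 0.05) did not differ beyond counting error. With the 3 ranges weighted alike the levels were 790 and 839 CPM, a log2 ratio of 0.09 in place of 0.41. For Lgals9 the same weighting gave 0.29 in place of 0.45, and for Havcr2 0.97 in place of 1.10. Cd274 did not differ beyond counting error between neutrophils with and without a UMI of Ly6e, an interferon-stimulated surface gene that was in no score, after thinning. The thinned cells with Ly6e numbered 28 in 4T1P and 214 in 4T1M, while 93 and 497 neutrophils had a Ly6e UMI unthinned. Many cells with Ly6e thus count as without it, and this split cannot exclude a difference. In 4T1M, neutrophils with a Ly6e UMI after thinning had 802 CPM of Cd274 and those without 826 CPM (log2 ratio -0.04, -0.16 to 0.07), and in 4T1P 727 and 615 CPM (0.24, -0.10 to 0.57). Lgals9 was higher in the 4T1M cells with Ly6e, at 177 against 118 CPM (0.58, 0.32 to 0.84), as was Havcr2 (0.65, 0.11 to 1.16), while Pdcd1lg2 was lower (-0.99, -1.89 to -0.21).

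**Figure D5:**
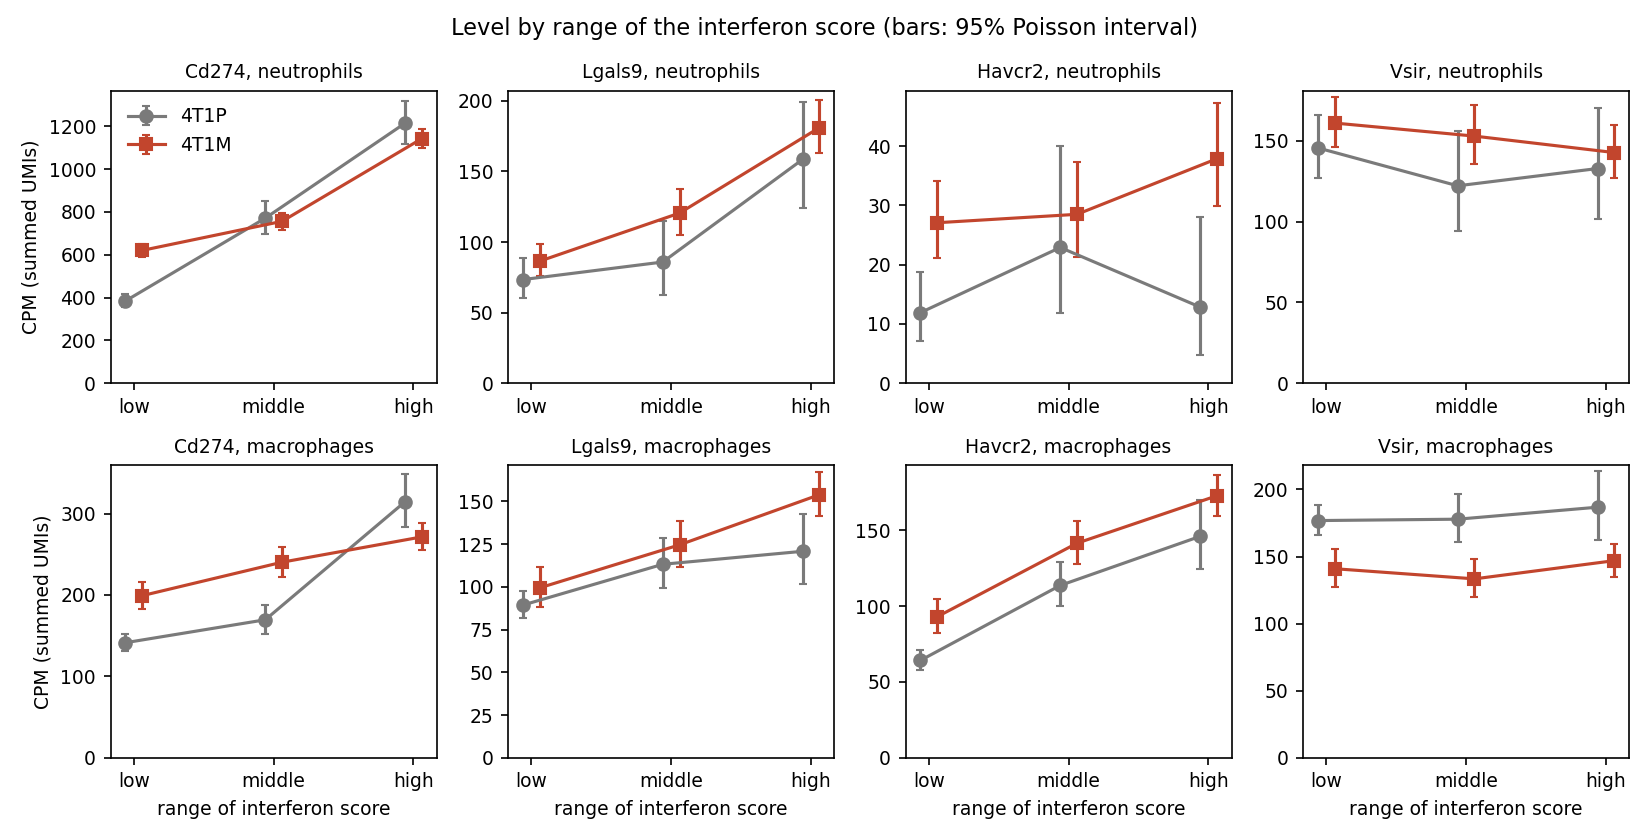
Level of Cd274, Lgals9, Havcr2 and Vsir in CPM of summed UMIs (linear axes from 0) in the low, middle and high range of the interferon score in neutrophils and macrophages of 4T1P and 4T1M, with exact Poisson 95% intervals. In neutrophils Cd274 goes from 384 to 1214 CPM in 4T1P and from 620.3 to 1142 CPM in 4T1M, while Vsir stays near its class level.

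In macrophages the same score separated more members. Its limits there lay at 1 and 3 UMIs, and 1411 of 1708 macrophages lay within 1 UMI of a limit. Cd274 stood at 141, 169.5 and 315 CPM in 4T1P and 199, 240.2 and 271 CPM in 4T1M, with high over low at 1.15 (0.97 to 1.34) and 0.45 (0.30 to 0.60). Havcr2 had 64.2, 114 and 146 CPM in 4T1P and 93.02, 141 and 173 CPM in 4T1M (1.18, 0.91 to 1.45, and 0.89, 0.68 to 1.11). Cd86 (0.56 and 0.69) and Lgals9 (0.43 and 0.63) were higher in the high range of both libraries with intervals above 0, as was Pdcd1lg2 in 4T1P (1.96, 1.37 to 2.54), with 0.61 (-0.04 to 1.27) in 4T1M, while Vsir (0.08 and 0.06) and Sirpa (-0.01 and -0.07) had intervals that held 0. Cd80 was lower in the high range in 4T1P (-0.65, -1.17 to -0.17) and higher in 4T1M (0.41, 0.09 to 0.74). The high range held 12.97% of 4T1P and 34.3% of 4T1M macrophages. Inside it Cd274 was lower in 4T1M than in 4T1P (-0.21, -0.39 to -0.04), and inside the low range higher (0.49, 0.33 to 0.65). With the ranges weighted alike the ratio between the tumors was 0.18 for Cd274 and 0.33 for Havcr2, against 0.48 and 0.68, and -0.36 for Vsir and -0.28 for Sirpa, against -0.33 and -0.29.

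Other scores ordered the members differently. The granule score had its limits at 0 and 2 UMIs, and 1757 of 2292 neutrophils lay within 1 UMI of a limit. The 12 genes of this score were Camp, Ltf, Ngp, Lcn2, Chil3, Cd177, Mmp8, Mmp9, Elane, Mpo, Ltb4r1 and Padi4. From its low to its high range Cd274 had 863, 867 and 337 CPM in 4T1P and 1140, 938 and 522 CPM in 4T1M. High over low was -1.36 (-1.54 to -1.17) and -1.13 (-1.23 to -1.03). Pdcd1lg2 was lower in the high range as well (-3.03 and -1.47), as was Lgals9 (-0.83 and -0.54), and Vsir was higher (0.68, 0.29 to 1.09, and 0.35, 0.12 to 0.57). By 11 inflammatory genes such as Il1b, Tnf and Ccl3, Cd274 had 449, 655 and 959 CPM in 4T1P and 547, 861 and 1055 CPM in 4T1M (1.10, 0.92 to 1.27, and 0.95, 0.85 to 1.05). Pdcd1lg2 (1.43 and 0.78) and Havcr2 (1.56 and 0.98) were also higher in the high range, and Vsir was lower (-0.96 and -0.38), each with intervals off 0. Cd274 and Vsir thus lay at opposite ends of both scores.

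In macrophages, Pdcd1lg2, Cd86 and Havcr2 had higher levels in the high range of a score of 6 MHC class II genes in both libraries. High over low was 3.43 (2.48 to 4.55) in 4T1P and 1.26 (0.57 to 2.003) in 4T1M for Pdcd1lg2, resting on 10 and 22 UMIs in the low range, and 0.63 (0.44 to 0.81) and 0.77 (0.57 to 0.97) for Cd86. Havcr2 gave 0.97 and 0.47, and Cd274 0.50 (0.31 to 0.68) in 4T1P and -0.27 (-0.41 to -0.12) in 4T1M, opposite signs. By 6 genes of resident macrophages (Mrc1, Cd163, Lyve1, Folr2, Cbr2 and F13a1), Vsir (0.53 and 0.48) and Sirpa (0.38 and 0.63) were higher in the high range and Cd86 lower (-0.39 and -0.43). The limits of this score lay at 0 and 1 UMI, and 1540 of 1708 macrophages lay within 1 UMI of a limit. The resident-high range held 28.3% of 4T1P and 9.18% of 4T1M macrophages, and Vsir and Sirpa are the members that were lower in 4T1M. The part of these shares in the ratios of Vsir and Sirpa was not tested. By the genes Thbs1, Mmp12, Arg1, Sdc1, Spp1 and Hmox1, Havcr2 was lower in the high range (-0.78 and -0.41), while Cd274 was level (0.06 and 0.04, both intervals holding 0).

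Genes known to act upstream of PD-L1 went in both directions between the tumors, with more counting intervals above 0 than below in both myeloid classes. Of 17 such genes, 16 in neutrophils and all 17 in macrophages had enough UMIs. In neutrophils 2 were at least 1.5-fold higher in 4T1M and 0 lower, with a median log2 ratio of 0.12, and in macrophages 3 were higher and 0 lower, with a median of 0.03. The shares over all genes were 13.8% and 6.13% in neutrophils and 5.92% and 6.27% in macrophages. Counting intervals lay above 0 for 6 of the upstream genes and below 0 for 1 in neutrophils, and for 6 and 3 in macrophages. The same count of intervals over all genes was not made. Jak2, a kinase of the interferon-gamma receptor, was higher by 0.82 (0.62 to 1.02) in neutrophils and 0.67 (0.51 to 0.83) in macrophages. Stat2 (0.57 and 0.99), Irf9 (0.40 and 0.42) and Nfkb1 (0.45 and 0.31) were also higher in neutrophils and macrophages, with intervals above 0. The receptor chains Ifngr1 (-0.15 and -0.19) and Ifngr2 (-0.12 and -0.25) and the factor Irf1 (0.08 and -0.18) had ratios near or below 0. Cmtm6, whose product keeps PD-L1 at the surface, was lower in neutrophils (-0.43, -0.61 to -0.25) and stood at -0.10 (-0.28 to 0.08) in macrophages.

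Of 39 further costimulatory and coinhibitory genes, 17 in neutrophils and 24 in macrophages had enough UMIs. In neutrophils 4 were at least 1.5-fold higher in 4T1M and 1 lower (median 0.07), beside 13.8% and 6.13% of all genes. The highest ratios among those with at least 100 UMIs were those of Icosl, the ligand of ICOS, from 9.59 to 20.6 CPM (1.10, 0.47 to 1.80), the inhibitory lectin gene Siglece (0.56, 0.28 to 0.85) and Cd24a (0.44, 0.36 to 0.51), whose product binds a lectin of that family. The lowest were Cd244a (-0.38), Ceacam1 (-0.34) and Entpd1 (-0.33, -0.46 to -0.20), which encodes the ectonucleotidase CD39, with 0 inside the intervals of the first pair. In macrophages 3 were higher and 4 lower (median -0.00), beside 5.92% and 6.27% of all genes. Among those with at least 100 UMIs, Siglece (1.01), Cd24a (0.79) and Icosl (0.45, -0.06 to 0.97) had the highest ratios there and Vsig4 (-2.40, -2.87 to -1.95), Tnfrsf9 (-0.65) and Ceacam1 (-0.63) the lowest. Vsig4, an inhibitory receptor of resident macrophages, had 242 UMIs in 4T1P and 49 in 4T1M.

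The genes whose levels over the 6 sums (3 classes in 2 libraries) were most like those of Cd274, by the root mean square distance of centered log2(CPM + 1) among 9396 genes, were Dusp16 at 0.11, Gm36913 at 0.15, Tmco6 at 0.15, Rab7 at 0.15 and Ccdc146 at 0.17. Dusp16, a phosphatase of MAP kinases, had 177 and 231 CPM in neutrophils, 54.8 and 60.3 CPM in macrophages and 24.7 and 20.8 CPM in T/NK cells. Rab7, a GTPase of late endosomes, had 692 and 772 CPM, 225 and 243 CPM, and 101 and 97.0 CPM. Gm36913 and Ccdc146 had 0 CPM in T/NK cells of both libraries, and Tmco6 had 2.06 and 1.73 CPM there. The likeness of these genes to Cd274 thus rests in part on counts near 0. The 6 sums share their 2 libraries, and the likeness is a description.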

How the data were processed

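Single-cell RNA-seq was available for 1 pooled library each of 4T1P (titled non-responding) and 4T1M (responding). The deposited values are raw counts of UMIs for each gene in each barcode, made by the authors with Cell Ranger (4.0.0 per the file headers and processing notes; the methods name another version) on mm10, without normalization. The records give 5 pooled mice per library, and the study's text gives another number.

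Totals were 21855657 UMIs over 2947 barcodes for 4T1P and 24303957 over 5004 for 4T1M. T/NK cells were assigned first; neutrophils had to hold under 0.5% of UMIs from C1q and Apoe, and macrophages under 1.5% from S100a8 and S100a9. The retained cells of no class numbered 243 and 705. No doublets were removed; Scrublet called 6 and 2 barcodes by itself, so the 69 and 200 highest scores were removed as an alternative. Levels are CPM of summed UMIs with exact Poisson intervals, shares have Clopper-Pearson intervals, ratios exact conditional ones (Python 3.11.15, numpy 2.4.6, scipy 1.17.1, scanpy 1.11.5). TMM (edgeR 4.0.16) and DESeq2 1.42.0 (R 4.3.3) gave scaling factors only. No p-value was computed. Ratios were checked on class sums simulated with counting error alone. That check does not cover the uneven spread of UMIs over cells.

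The genes named are the 10 members, the 3 highest and 3 lowest per class of the 39 further genes with 100 UMIs or more over the 2 libraries, upstream genes fixed by name (1 of them is not reported here), and the 5 genes most like Cd274. Stat2, Irf9 and Nfkb1 of the upstream genes were named in addition, after the data were seen. Members and lists were chosen with earlier results of these data known. The separate levels of T/NK cells by Cd4 and Cd8, of cells of no class and of ranges weighted alike were added after the data were seen.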

Additional observations from a re-analysis of the deposited data

Results flagged for a closer look

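Cells that met no class are used in none of the comparisons above, and Cd274 was high in part of them. Among these, cells with at least 3 of the 5 neutrophil genes Csf3r, Cxcr2, Retnlg, G0s2 and Hdc had 867 CPM of Cd274 (773 to 970.2, 79 cells) in 4T1P and 904 CPM (850 to 960.3, 296 cells) in 4T1M, above the 620.1 and 822 CPM of the neutrophils themselves. These cells missed the neutrophil rule by their S100a8 and S100a9 or their macrophage genes. In the neutrophils S100a8 and S100a9 took 15.9% and 12.9% of UMIs, which lowers the CPM of every other gene there. Levels with S100a8 and S100a9 left out of the total were not computed. The part of this in the higher Cd274 level of the cells of no class was not tested. Beside the S100a8 and S100a9 limit of 1.5% of UMIs, cells just outside (1% to 1.5%) had 988 and 1133 CPM and neutrophils just inside (1.5% to 2%) 856 and 1186 CPM. With neutrophils chosen by the 5 genes in place of S100a8 and S100a9, the log2 ratio of 4T1M over 4T1P was 0.41, as before. The other cells of no class had 379.7 CPM (164 cells) and 603 CPM (409 cells) of Cd274. Havcr2 stood at 65.0 and 80.7 CPM in the cells of no class with neutrophil genes, against 14.4 and 30.8 CPM in neutrophils. In the other cells of no class it stood at 74.1 and 116 CPM, against 87.0 and 139 CPM in macrophages.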

How the results depend on the processing

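With 1 pooled library per tumor type, no replicate could be left out and no paired analysis was possible because no group has a second library; all values compare 2 libraries. The number of members at least 1.5-fold higher in 4T1M neutrophils, 2 as reported, was 1 (Havcr2) under a mitochondrial limit of 5%, no upper limit on detected genes, T/NK cells that met a myeloid rule counted in both classes, removal of the highest Scrublet scores, TMM scaling, DESeq2 scaling and the mean of single-cell CPM, since Pdcd1lg2 lay beside the limit. In macrophages it was 2 in place of 1 with no upper limit on detected genes, where Cd274 reached 0.66. The numbers of lower members stayed 0 under all 15 alternatives in each class. Of the single ratios of 4T1M over 4T1P under the alternatives, 319 stayed within the counting interval of the reported value and 21 did not. For macrophages over neutrophils 187 did, 46 did not and 7 turned sign. Both tallies include settings that could not move a ratio. Listing genes with at least 100 UMIs, or without a UMI limit, leaves each ratio unchanged. These settings gave 17 and 22 of the 319, and 16 and 16 of the 187. A changed rule for one myeloid class also leaves the tumor ratios of the other classes as they were. The turned ones were Cd80 in 4T1P (-0.083 with TMM, -0.23 with DESeq2) and in 4T1M (-0.44 and -0.57), Vsir in 4T1P (-0.62 and -0.77) and Sirpa in 4T1M (-0.030 with DESeq2); these scalings shift every such ratio by -0.98 and -1.13 in 4T1P and -0.93 and -1.06 in 4T1M. Between the tumors they shift neutrophils by -0.05, macrophages by 0.03 and T/NK cells by 0.12 and 0.11. Of the shares of cells, 85 of 180 left their interval, mostly because unthinned cells or cells thinned to 2000 UMIs are deeper. Leaving out the T/NK cells that also met a myeloid rule (1 and 4 cells) gave 88.6 and 77.2 CPM of Cd274, 329 and 220.4 CPM of Ctla4 and 71.8 and 37.7 CPM of Pdcd1 there. Depth limits the sparse members most in T/NK cells, where 1 UMI is worth about 2 CPM.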
